A study of Mus musculus with 4 samples.

Results

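The 10 genes of antioxidant defence and metal binding described here were measured in mouse lung epithelium: the metallothioneins Mt1 and Mt2, the peroxiredoxins Prdx1 and Prdx6, the superoxide dismutase Sod1, catalase (Cat), the glutathione peroxidase Gpx1, the glutathione transferases Gstm1 and Gsto1, and selenoprotein P (Sepp1). They were chosen by name, with earlier results of these data known. All 10 of 10 were listed in each of the 4 libraries, out of 14561 genes listed in at least 1 of them. The libraries were made with the 10x 3' single-cell protocol, in which each molecule is counted once by a unique molecular identifier (UMI), from alveolar type II (AT2) cells of postnatal day 60 (P60) and from alveolar type I (AT1) cells of days 3, 15 and 60 (P3, P15 and P60). All mice were of a mixed FVB/C57BL6 background, carried Sftpc-CreER, Rosa26-Zsgreen and Hopx-RFP, and had received tamoxifen. AT2 cells were sorted as green and negative for CD45, so they are cells in which the Sftpc-driven Cre had acted, and AT1 cells were sorted as positive for the red Hopx reporter and Pdpn and negative for green and CD45. Neutral protease, DNase I, elastase and collagenase were used on AT1 lungs, whereas AT2 lungs received no elastase or collagenase, so that digestion and cell type cannot be told apart. How many mice went into a library is not stated in the sources used. Each group was 1 library, so no comparison has a replicate check or a test, and every interval below covers counting error only.

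The AT2 library held 2093 cells and 10379705 UMIs, and the AT1 libraries held 3149, 2940 and 1337 cells with 26536894, 15401939 and 7276458 UMIs at P3, P15 and P60. Median depth was 4864 UMIs per cell in the AT2 library and 7477, 4928 and 5279 in the AT1 libraries, and pairs of libraries shared 3 to 15 cell barcodes. Clusters were named from marker genes, and levels were taken from the summed UMIs of the AT2-like class (1987 cells) or the AT1-like class (2818, 2624 and 1197 cells at P3, P15 and P60), as CPM, the UMIs of a gene per 1000000 UMIs of all listed genes. All 25 AT1 markers were above 10 CPM in each AT1-like class, and all 21 AT2 markers were above 10 CPM in the AT2-like class. Cluster 1 of the AT2-like class had the AT1 marker S100a6 among its leading genes and cluster 4 of the P15 class had the ciliated cell marker Tubb4b, so values by cluster are also given. RNA of other cell types was present in the classes. Ager, the receptor that marks AT1 cells, stood at 1556 CPM in AT2-like cells, against 22200 CPM in AT1-like cells at P60, and the club cell secretoglobin Scgb1a1 stood at 1024, 274 and 1067 CPM in the AT1-like class of P3, P15 and P60. The AT2 marker Sftpc stood at 310.5, 125.5 and 219.6 CPM in the same classes. Cells with fewer than 3 AT2 markers detected were 718 of 2818 at P3, 1909 of 2624 at P15 and 639 of 1197 at P60.

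Superoxide dismutases convert superoxide into hydrogen peroxide, which catalase, glutathione peroxidases and peroxiredoxins then reduce. Glutathione transferases couple glutathione to reactive molecules, and metallothioneins are small cysteine-rich proteins that bind zinc and copper. In the lung, AT1 and AT2 cells face inhaled oxygen directly, and PRDX6 is known there also for a phospholipase activity that acts on surfactant lipids. Mt1 and Mt2 are the genes for which the regulatory sequence is best known in mouse: zinc induces them through the transcription factor MTF1, which binds metal response elements, whereas NRF2 acts through antioxidant response elements.

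Mt2 (chr8:94172664-94173568, plus strand) lies upstream of Mt1 (chr8:94179082-94180327, plus strand) on mm10, with 5513 bases between them. Their promoter windows are shown because these neighbours had the widest spread of levels among the members over AT1 ages. Each window runs from 250 bases before to 50 bases after the RefSeq start of the gene (GRCm38.p6, plus strand), which is at 94179089 for Mt1 and 94172618 for Mt2 and differs from the GENCODE coordinates given above, and capitals mark the core of the metal response element, TGCACNC or TGCGCNC, on either strand.
Mt1, chr8:94178839-94179138: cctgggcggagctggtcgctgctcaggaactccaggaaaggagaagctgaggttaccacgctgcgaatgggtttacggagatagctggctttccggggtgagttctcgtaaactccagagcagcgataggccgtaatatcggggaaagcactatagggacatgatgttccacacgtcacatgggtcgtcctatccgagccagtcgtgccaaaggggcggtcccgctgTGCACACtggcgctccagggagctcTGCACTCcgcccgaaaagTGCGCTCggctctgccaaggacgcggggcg
Mt2, chr8:94172368-94172667: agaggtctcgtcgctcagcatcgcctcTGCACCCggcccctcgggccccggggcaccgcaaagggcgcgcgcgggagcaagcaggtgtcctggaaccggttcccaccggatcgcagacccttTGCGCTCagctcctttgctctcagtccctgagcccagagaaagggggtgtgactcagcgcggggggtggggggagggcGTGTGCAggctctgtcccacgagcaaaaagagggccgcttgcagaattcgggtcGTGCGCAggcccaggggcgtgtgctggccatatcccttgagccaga
The Mt1 window held 3 matches, all on the plus strand, and the Mt2 window held 4, with 2 on each strand. They began at bases 228, 253 and 271 of the Mt1 window and at bases 28, 123, 201 and 255 of the Mt2 window. Those that began past base 250 lie after the RefSeq start. Of 32851 windows of the same length, 25.7% held at least 1 match, 1.97% at least 3 and 0.518% at least 4. Windows were given for 9 of the 10 members, and among the other members the windows of Gstm1 held 1 match and those of Prdx1, Sod1, Cat, Gpx1, Gsto1 and Sepp1 none. The core of the antioxidant response element, searched as TGACNNNGC on both strands, was found 1 time each in the windows of Mt2, Prdx1 and Sod1, and in 12.4% of all windows. The Mt2 match did not overlap a metal response element core. These letters describe the windows and do not show binding.

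**Figure D1:**
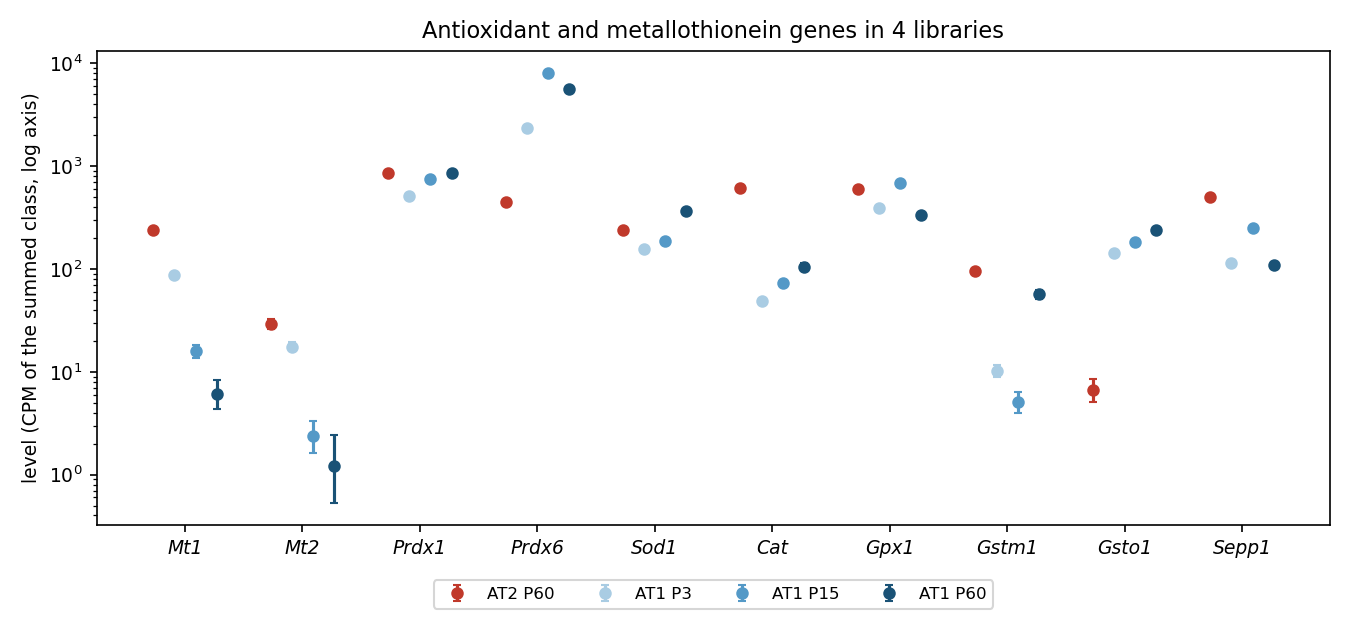
Level of each gene in CPM of the summed class (log axis) in AT2 cells at P60 (red) and in AT1 cells at P3, P15 and P60 (light to dark blue), 1 library each, with exact 95% Poisson intervals. Mt1 and Mt2 were lower at each later AT1 age, Prdx6 was above 2000 CPM at all 3 AT1 ages and at 446 CPM in AT2 cells, and Gsto1 was at 6.62 CPM in AT2 cells.

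Over the AT1 ages, Mt1 was lower and Prdx6, Sod1, Cat and Gstm1 were higher at P60 than at P3. Of the 9 members that reached 50 CPM and 30 UMIs in the higher of the libraries at P60 and P3, 4 had at least 2-fold higher levels at P60 (Prdx6, Sod1, Cat and Gstm1) and 1 was at least 2-fold lower (Mt1). Over all 3457 genes that passed the same minimum, 13.3% were at least 2-fold higher and 9.55% at least 2-fold lower. The median log2 ratio was 0.75 over the members that passed and 0.12 over all genes that passed. With a trimmed mean of log ratios in place of the total, the median over all genes was -0.17, with 8.31% of genes higher and 13.2% lower. On that scale 2 members were counted as at least 2-fold higher (Prdx6 and Sod1). The ratio of Cat fell under 2-fold. That of Gstm1 did not, but its level fell under the minimum of 50 CPM. The composition of the libraries moved with age: ribosomal protein genes took 19.4, 7.01 and 4.56% of class UMIs and Malat1, a nuclear RNA, took 4.27, 6.70 and 16.0% at P3, P15 and P60. Their part in the ratios of single genes was not tested, beyond the other scalings given in the closing section.

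Mt1 stood at 88.3 CPM at P3 (84.4 to 92.3, 1978 UMIs), 15.8 CPM at P15 (13.8 to 18.1, 215 UMIs) and 6.12 CPM at P60 (4.37 to 8.34, 40 UMIs). The ratio was 0.179 at P15 over P3 (0.155 to 0.206) and 0.0694 at P60 over P3 (0.0494 to 0.0948). Mt2 stood at 17.6, 2.35 and 1.22 CPM, from 394, 32 and 8 UMIs, under the minimum for a count at every AT1 age. Both genes were lower at each later age, and for Mt2 the intervals at P15 (1.61 to 3.32 CPM) and P60 (0.529 to 2.41 CPM) overlapped. After each cell was thinned to 2000 UMIs, a Mt1 UMI was found in 13.4% of AT1-like cells at P3, 3.07% at P15 and 1.49% at P60, and before thinning in 37.3, 6.29 and 2.42%. In endothelial-containing clusters of the same libraries, the thinned shares were 2.00% (1 of 50 cells), 2.94% (1 of 34) and 2.78% (1 of 36), with upper bounds of 10.7, 15.3 and 14.5%, so that 1 cell each sets that level.

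Other cells of the AT1 libraries held most metallothionein RNA. At P3, 142 club and ciliated-like cells were 4.51% of the cells and held 82.9% of the Mt1 UMIs, 92.1% of the Mt2 UMIs and 84.4% of the Gstm1 UMIs, at 6389, 3067 and 1062 CPM. At P15, 63 AT2 and club-like cells were 2.14% of the cells and held 66.0% of the Mt1 and 75.1% of the Mt2 UMIs. Club cells are secretory cells of the airway, and their genes were also seen at low level in AT1-like cells. At P3 the AT1-like level was 2.15% of the club and ciliated-like level for Scgb1a1, 0.978% for Scgb3a2, 0.713% for Cyp2f2 and 0.502% for Cbr2, against 1.38% for Mt1 and 0.573% for Mt2. The Mt1 and Mt2 percentages at P3 thus lay within the range of these club genes. The number of Mt1 UMIs per Mt2 UMI at P3 was 5.02 in AT1-like cells (4.50 to 5.61), against 2.08 in club and ciliated-like cells (2.02 to 2.15). In AT2-like cells of that library it was 4.56 (3.52 to 5.99), which overlapped the AT1-like value. It was 11.4 in immune-like cells (4.61 to 36.45) and 2.33 in endothelial and fibroblast-like cells (0.842 to 7.41). At P15 the 4 club genes stood at 0.113 to 0.193% of their level in AT2 and club-like cells, against 0.491% for Mt1 and 0.207% for Mt2. At P60, where no club-like cluster was found, Scgb1a1 was at 1067 CPM and Mt1 at 6.12 CPM. The part of club cell RNA in the metallothionein levels of AT1-like cells was not tested. At P3, 65 AT2-like cells held 295 CPM of Mt1 (264 to 329), and immune-like cells 156 CPM.

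**Figure D2:**
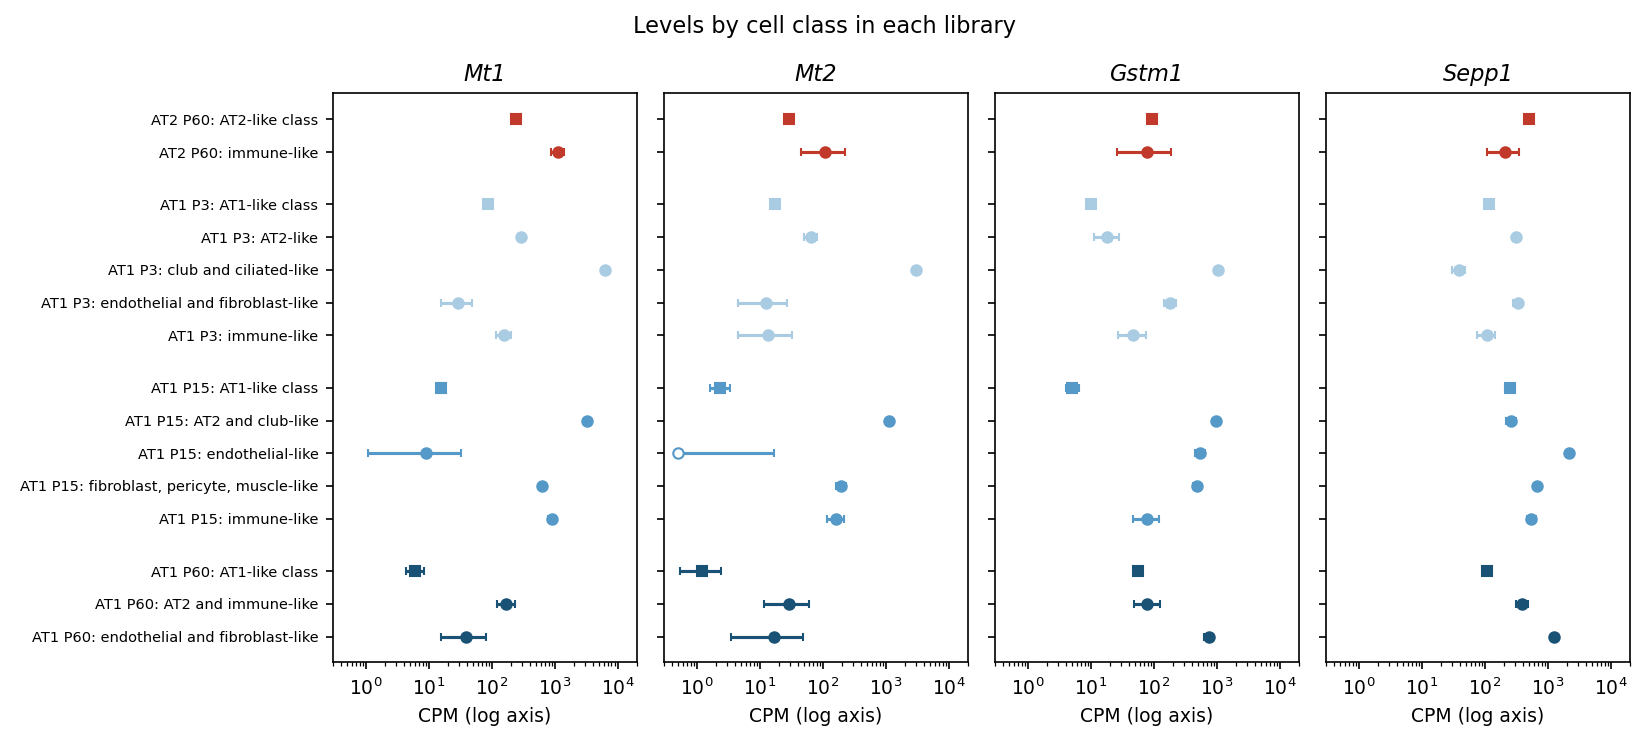
Levels of Mt1, Mt2, Gstm1 and Sepp1 in CPM (log axis) by named cell class within each library, squares for the sorted class and circles for the other classes, with exact 95% Poisson intervals. Mt1, Mt2 and Gstm1 were highest in the club-containing classes of the P3 and P15 libraries and Sepp1 in the endothelial-containing ones, and the open circle is a count of 0 drawn at the axis edge with its upper limit.

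Prdx6 encodes the 1-cysteine peroxiredoxin (chr1:161240112-161251219, minus strand). Its level in AT1-like cells was 2354 CPM at P3 (2334 to 2374), 8163 CPM at P15 (8115 to 8211) and 5670 CPM at P60 (5613 to 5728). These levels placed it 69th, 5th and 8th among the listed genes. P15 was the highest age and P3 the lowest, with ratios of 3.47 at P15 over P3 (3.43 to 3.50), 2.41 at P60 over P3 (2.38 to 2.44) and 0.695 at P60 over P15 (0.686 to 0.703). Every AT1-like cluster at P15 (6091 to 9752 CPM in 6 clusters) lay above every cluster at P3 (2109 to 2644 CPM). At P60 the 5 clusters ran from 2302 to 7197 CPM and overlapped those of P3.

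Prdx1, the most widespread of the 2-cysteine peroxiredoxins (chr4:116685544-116700822, plus strand), stood at 511 CPM at P3 (502 to 520), 749 CPM at P15 (735 to 764) and 860 CPM at P60 (838 to 883). It was higher at each later age without reaching 2-fold, with a ratio of 1.68 at P60 over P3 (1.63 to 1.74). Among 21 genes of the peroxiredoxin and thioredoxin list, 13 passed the minimum at P60 and P3, 1 was at least 2-fold higher (Prdx6) and 3 were at least 2-fold lower (Prdx4, Txnip and Glrx3), with a median log2 ratio of -0.22. Prdx4, a peroxiredoxin of the endoplasmic reticulum, was at 17.9 CPM at P60 and 92.9 CPM at P3, a ratio of 0.193. Txnip, which inhibits thioredoxin, was at 184 CPM at P60 and 475 CPM at P3, a ratio of 0.388. Prdx3, the mitochondrial peroxiredoxin, had a ratio of 1.33 and Glrx5 one of 1.53.

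Sod1, the cytosolic copper and zinc superoxide dismutase (chr16:90220754-90226329, plus strand), stood at 155 CPM at P3 (150 to 160), 186 CPM at P15 (179 to 193) and 367 CPM at P60 (353 to 382). Most of its difference lay between P15 and P60, where the ratio was 1.98 (1.87 to 2.09), just under 2-fold. The ratio was 2.37 at P60 over P3 (2.25 to 2.49), and it was at least 2-fold under 13 of the 14 other settings tried. The lowest P60 cluster (298 CPM) lay above the highest P3 cluster (177 CPM). Of the 10 genes of superoxide dismutases and copper chaperones, 5 passed and 2 reached 2-fold higher levels at P60 (Sod1 and Cox17), with a median log2 ratio of 0.41. Cox17, which carries copper to cytochrome c oxidase, was at 553 CPM at P60 and 255 CPM at P3. Sod2, the mitochondrial enzyme, had a ratio of 1.33, and Ccs, the chaperone that loads copper into SOD1, one of 0.983. Atox1, which carries copper to the Golgi, had a ratio of 0.584.

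Cat encodes catalase, which breaks down hydrogen peroxide in peroxisomes (chr2:103453849-103485160, minus strand). It stood at 48.5 CPM at P3 (45.6 to 51.4), 73.9 CPM at P15 (69.4 to 78.6) and 106 CPM at P60 (97.9 to 114), with a ratio of 2.18 at P60 over P3 (1.98 to 2.40). The 3 ages did not overlap in the counting error of the class. By cluster, the highest P3 level was 60.5 CPM, the P15 levels 63.0 to 80.6 CPM and the lowest P60 level 94.6 CPM. The intervals of these clusters did overlap. They were 51.2 to 71.0 CPM for the highest at P3 and 50.7 to 77.3 CPM for the lowest at P15. The highest at P15 had 70.8 to 91.3 CPM and the lowest at P60 had 61.2 to 139.6 CPM, from 25 UMIs. The lower bound of the ratio was under 2, and the ratio lost 2-fold under 5 of 14 other settings. Of 31 peroxisome genes, 9 passed, 2 reached 2-fold higher levels at P60 (Cat and Abcd3) and 0 lower ones, with a median log2 ratio of 0.11. Abcd3, a transporter of the peroxisome membrane, was at 135 CPM at P60 and 64.3 CPM at P3. Scp2, a lipid carrier and thiolase of peroxisomes, had a ratio of 0.709.

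Gpx1 reduces hydrogen peroxide in the cytosol with glutathione and carries selenocysteine (chr9:108338903-108340343, plus strand). It was highest at P15, with 391 CPM at P3 (383 to 400), 681 CPM at P15 (667 to 695) and 335 CPM at P60 (321 to 349). The ratio was 1.74 at P15 over P3 (1.69 to 1.79) and 0.492 at P60 over P15 (0.469 to 0.515), an interval that held 0.5, and 6 of 15 other settings left it short of 2-fold. Sepp1, listed as Selenop in current annotation, encodes a secreted selenium carrier (chr15:3268547-3280508, plus strand) and was also highest at P15, with 115 CPM at P3 (111 to 120), 250 CPM at P15 (242 to 259) and 109 CPM at P60 (102 to 118). The intervals of P3 and P60 overlapped for Sepp1, and its P60 over P3 ratio lay between 0.805 and 1.25 over the other settings. Its ratio was 2.17 at P15 over P3 (2.06 to 2.29) and 0.437 at P60 over P15 (0.403 to 0.474). From P15 to P60, of the 8 members that passed, 1 was at least 2-fold higher (Gstm1) and 2 at least 2-fold lower (Gpx1 and Sepp1), beside 3.85% and 4.44% of the 3425 genes that passed. From P3 to P15, of 8 members, 2 were at least 2-fold higher (Prdx6 and Sepp1) and 1 lower (Mt1), beside 9.25% and 6.64% of 3285 genes. With haemoglobin, mitochondrial and ribosomal protein genes left out of the total, the share of genes was 5.42% higher and 8.68% lower at P15 over P3. With the trimmed mean of log ratios it was 2.87% higher and 6.13% lower at P60 over P15, and with Malat1 left out of the total 6.51% and 3.10%. The median log2 ratio over the members that passed was 0.58 at P15 over P3 and 0.29 at P60 over P15, beside 0.13 and -0.04 over all genes that passed. At 1.5-fold, 6 members were higher at P60 over P3 beside 26.2% of genes, 4 at P15 over P3 beside 22.1%, and 2 at P60 over P15 beside 12.1%.

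The P15 ratios of Sepp1 lost 2-fold under 3 of 15 other settings each. Without the clusters led by immediate early genes, which are induced within minutes of stimulation, its P15 over P3 ratio was 1.90. Its 6 clusters at P15 ran from 163 to 341 CPM, against 72.5 to 188 CPM at P3, so that they overlapped. Among glucocorticoid-responsive genes, Tsc22d3, a direct target of the glucocorticoid receptor, stood at 157, 1219 and 198 CPM at P3, P15 and P60. On that list of 15 genes, 11 passed at P15 and P3, of which 6 had at least 2-fold higher levels at P15 and 0 lower ones. At P60 over P15, 7 of 11 were at least 2-fold lower and 0 higher. Their part in the P15 levels of Gpx1 and Sepp1 was not tested. Immediate early genes summed to 10730, 7016 and 5254 CPM, and 13 of the 19 that passed were at least 2-fold lower and 2 higher at P60 over P3. Endothelial-like cells of the P15 library held 2199 CPM of Sepp1, and the endothelial and fibroblast-like cells of P60 held 1262 CPM.

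Of the 32 genes on the selenoprotein list, 9 passed at P60 and P3, of which 1 was at least 2-fold higher (Vimp) and 0 lower, with a median log2 ratio of -0.07. Vimp, a selenoprotein of the endoplasmic reticulum membrane also called Selenos, was at 416 CPM at P60 and 174 CPM at P3. Sepw1 had a ratio of 0.792, Selk one of 0.871 and Secisbp2l one of 1.62. Of the 18 glutathione peroxidase and glutathione synthesis genes, 5 passed, 0 were at least 2-fold higher and 1 was lower (Gpx8, at 60.3 CPM at P60 and 137 CPM at P3), with a median log2 ratio of 0.06. Gpx4, which reduces lipid peroxides in membranes, was at 2044 CPM at P60 and 1485 CPM at P3, a ratio of 1.38.

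Gstm1, a mu-class glutathione transferase (chr3:108012255-108017973, minus strand), stood at 10.2 CPM at P3 (8.90 to 11.6, 228 UMIs), 5.07 CPM at P15 (3.95 to 6.42, 69 UMIs) and 56.8 CPM at P60 (51.2 to 62.9, 371 UMIs). P60 alone was above the minimum, with ratios of 5.58 over P3 (4.72 to 6.61) and 11.2 over P15 (8.63 to 14.7). The lowest P60 cluster had 36.5 CPM and the highest P3 cluster 13.2 CPM. The direction turned with the choice of cells. With all cells of each library summed, the P60 over P3 ratio was 0.864, and club and ciliated-like cells held 1945 Gstm1 UMIs at P3, against 228 in AT1-like cells. In the P60 library, endothelial and fibroblast-like cells held 746 CPM. Thinned shares of AT1-like cells with a Gstm1 UMI were 2.16, 0.787 and 9.67% at P3, P15 and P60. Mu-class genes are close copies of each other, and the sources used here do not say how reads shared between them were counted.

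Gsto1, an omega-class transferase that reduces dehydroascorbate (chr19:47854970-47864790, plus strand), stood at 144 CPM at P3 (139 to 149), 183 CPM at P15 (176 to 191) and 239 CPM at P60 (228 to 252). At P3 its UMIs were concentrated in a few cells. A single AT1-like cell carried 576 of the 3232 UMIs, and 3 cells that had been set aside for markers of other cell types carried 2921 UMIs, 1377 of them in 1 cell. No cell at P15, at P60 or in the AT2 library held 20 or more Gsto1 UMIs. Without the cell of 576 UMIs the P3 level was 119 CPM. The P60 over P3 ratio was 1.66 (1.56 to 1.76) in the class, 2.03 without the 1% of cells with the most Gsto1 UMIs, and 0.876 with all cells summed. A thinned share counts each cell once, and the share of AT1-like cells with a Gsto1 UMI was 20.1% at P3, 29.2% at P15 and 37.0% at P60. The endothelial-containing clusters had a Gsto1 UMI in 4 of 50, 0 of 34 (upper bound 10.3%) and 1 of 36 cells. Club-containing clusters were not lower than AT1-like cells. Club and ciliated-like cells at P3 had a Gsto1 UMI in 75 of 142 cells (52.8%), at 346 CPM. AT2 and club-like cells at P15 had one in 19 of 63 cells (30.2%), at 235 CPM.

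Of the 23 genes of the glutathione transferase list, 7 passed at P60 and P3, 3 were at least 2-fold higher (Gstm1, Gstp1 and Gstt1) and 2 lower (Gstz1 and Mgst1), with a median log2 ratio of 0.73. Gstt1 was at 89.5 CPM at P60 and 27.0 CPM at P3, a ratio of 3.32, and Gstp1 at 55.6 and 26.7 CPM, a ratio of 2.08. Mgst1, a microsomal transferase, was at 47.1 CPM at P60 and 158 CPM at P3, a ratio of 0.298. Of 22 NRF2 targets, 6 passed, 1 was higher (Ephx1) and 1 lower (Ftl1), with a median log2 ratio of 0.10. Ephx1, the microsomal epoxide hydrolase, was at 53.1 CPM at P60, 10.4 CPM at P15 and 1.47 CPM at P3. Ftl1, the ferritin light chain, was at 1514 CPM at P60 and 3179 CPM at P3. Of the 12 NRF2 regulators, 7 passed and 0 were 2-fold apart in either direction, and Keap1, which holds NRF2 for degradation, was at 56.0 CPM at P60 and 43.0 CPM at P3, and Sqstm1 had a ratio of 1.66.

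Among 26 metallothionein and zinc transport genes, 6 passed at P60 and P3, 2 were at least 2-fold higher (Slc39a4 and Slc39a13) and 1 lower (Mt1), with a median log2 ratio of 0.67. Slc39a4 imports zinc across the plasma membrane, and its levels of 28.2, 107 and 296 CPM at P3, P15 and P60 ran in the opposite order to Mt1 and Mt2. Its ratio at P60 over P3 was 10.5 (9.58 to 11.5). Slc39a13, a zinc transporter of the Golgi, was at 32.1, 93.6 and 96.4 CPM, and Slc39a8, an importer of zinc and manganese, was at 547, 1122 and 570 CPM. Of 16 enzymes that generate reactive oxygen, 1 passed, which was Cyba, a subunit of NADPH oxidases, with a ratio of 0.762.

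**Figure D3:**
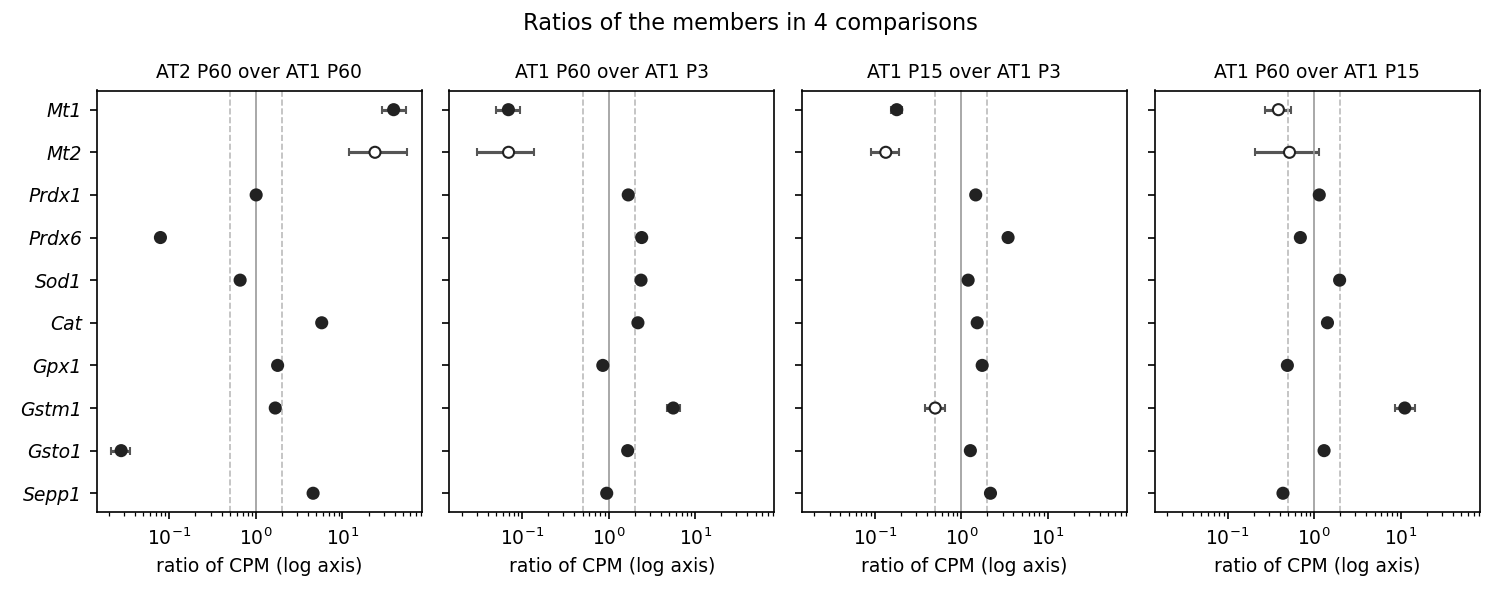
Ratios of CPM (log axis) in 4 comparisons, with exact 95% intervals, dashed lines at 2-fold and open circles for genes under 50 CPM in both libraries. Between cell types at P60, Mt1, Cat and Sepp1 lay right of the dashed lines and Prdx6 and Gsto1 left of them, and Mt1 lay left of them at P15 and P60 over P3.

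Between cell types at P60, the members fell into opposite groups. Of 9 members that passed, 3 were at least 2-fold higher in AT2-like cells (Mt1, Cat and Sepp1) and 2 at least 2-fold lower (Prdx6 and Gsto1). Over all 3498 genes that passed, 13.4% were at least 2-fold higher and 40.5% at least 2-fold lower in AT2-like cells. That background leant to AT1-like cells, with a median log2 ratio of -0.73 over all genes, against 0.74 over the members that passed. Surfactant genes took a large share of AT2 UMIs, and Sftpc alone stood at 136500 CPM. With median-of-ratios size factors in place of the total, the median over all genes was 0.14, 25.01% of genes were higher and 20.3% lower, and 5 members were higher (Mt1, Cat, Sepp1, Gpx1 and Gstm1) and 2 lower. At 1.5-fold on the main scale the same 5 were higher, beside 17.5% of genes.

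Mt1 stood at 239 CPM in AT2-like cells (230 to 249, 2383 UMIs), against 6.12 CPM in AT1-like cells (4.37 to 8.34, 40 UMIs), a ratio of 39.0 (28.6 to 54.8). Mt2 stood at 29.1 CPM in AT2-like cells (25.8 to 32.6, 290 UMIs), against 1.22 CPM in AT1-like cells (8 UMIs), a ratio of 23.7 (11.9 to 55.5), under the minimum for a count. The 3 AT2-like clusters held 244, 246 and 228 CPM of Mt1, all above the AT1-like clusters, which held at most 9.13 CPM. Thinned shares of cells with a Mt1 UMI were 30.7% in AT2-like and 1.49% in AT1-like cells. There were 8.22 Mt1 UMIs per Mt2 UMI in AT2-like cells (7.27 to 9.32), against 5.00 in AT1-like cells (2.31 to 12.4). Of the zinc genes, 6 passed, 1 was at least 2-fold higher in AT2-like cells (Mt1) and 3 lower (Slc39a4, Slc39a8 and Slc39a13), with a median log2 ratio of -1.08. Slc39a4 was at 38.0 CPM in AT2-like and 296 CPM in AT1-like cells, a ratio of 0.129, and Slc39a13 at 13.2 and 96.4 CPM, a ratio of 0.137. For both zinc transporters the direction was thus opposite to that of Mt1, between cell types as over AT1 ages. Slc39a2 of the same list, under the minimum for a count, ran in the order of Mt1 over AT1 ages. It stood at 44.1, 2.72 and 2.14 CPM at P3, P15 and P60. Between cell types, 40.5% of all genes that passed were also at least 2-fold lower in AT2-like cells.

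Cat stood at 608 CPM in AT2-like cells (593 to 623), against 106 CPM in AT1-like cells (97.9 to 114), a ratio of 5.76 (5.32 to 6.24). The AT2-like clusters ran from 547 to 652 CPM and the AT1-like clusters at P60 from 94.6 to 120 CPM, without overlap. A Cat UMI was found in 68.9% of AT2-like and 17.6% of AT1-like cells after thinning. Of the peroxisome genes, 9 passed, 3 were at least 2-fold higher in AT2-like cells (Cat, Scp2 and Abcd3) and 1 lower (Phyh), with a median log2 ratio of 0.66. Scp2 was at 1261 CPM in AT2-like and 155 CPM in AT1-like cells, a ratio of 8.16 (7.65 to 8.71). Abcd3 was at 304 and 135 CPM, a ratio of 2.25. Phyh, which starts the breakdown of phytanic acid, was at 19.1 and 93.7 CPM, a ratio of 0.204.

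Sepp1 stood at 501 CPM in AT2-like cells (487 to 515), against 109 CPM in AT1-like cells (102 to 118), a ratio of 4.58 (4.23 to 4.96). Of the other selenoprotein genes, the AT2-like level of Vimp was close to the AT1-like one (398 and 416 CPM), and Sep15 was lower, at 212 and 702 CPM, a ratio of 0.302. On that list 9 passed, 2 were at least 2-fold higher (Sepp1 and Secisbp2l) and 2 lower (Selt and Sep15), with a median log2 ratio of -0.49. Gpx1 stood at 596 CPM in AT2-like cells (580 to 611), against 335 CPM in AT1-like cells (321 to 349), a ratio of 1.78 (1.69 to 1.87). Of the glutathione genes, 6 passed, 1 was at least 2-fold higher (Gclc) and 2 lower (Gss and Slc3a2), with a median log2 ratio of -0.13. Gclc, the catalytic subunit of the first step of glutathione synthesis, was at 237 CPM in AT2-like and 15.5 CPM in AT1-like cells, a ratio of 15.3 (12.6 to 18.9). Gss, the second step, was at 11.9 and 50.2 CPM, a ratio of 0.238.

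Prdx6 stood at 446 CPM in AT2-like cells (433 to 459), against 5670 CPM in AT1-like cells (5613 to 5728), a ratio of 0.0787 (0.0762 to 0.0811). The AT2-like clusters held 422 to 472 CPM and the lowest AT1-like cluster at P60 held 2302 CPM. A Prdx6 UMI was found in 58.9% of AT2-like cells after thinning, against 99.8% of AT1-like cells. Gsto1 stood at 6.62 CPM in AT2-like cells (5.12 to 8.42, 66 UMIs), against 239 CPM in AT1-like cells (228 to 252), a ratio of 0.0277 (0.0213 to 0.0354). A Gsto1 UMI was found in 1.23% of AT2-like and 37.0% of AT1-like cells after thinning. Over the whole AT1 marker list, 23 of 25 genes had a UMI in AT2-like cells and 16 reached 10 CPM, with a summed level of 3571 CPM, against 70420 CPM in AT1-like cells. The part of AT1 cell RNA in the AT2-like levels of Prdx6 and Gsto1 was not tested.

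Prdx1 was nearly equal between the cell types, at 865 CPM in AT2-like cells (846 to 883) and 860 CPM in AT1-like cells (838 to 883), a ratio of 1.00 (0.972 to 1.04). It was the member with the ratio nearest to 1 on this scale, and the median-of-ratios scaling gave 1.63. Sod1 stood at 241 CPM in AT2-like cells (231 to 251), against 367 CPM in AT1-like cells (353 to 382), a ratio of 0.656 (0.620 to 0.694). Its direction turned with the scaling, and the median-of-ratios value was 1.06. Gstm1 stood at 94.9 CPM in AT2-like cells (88.9 to 101), against 56.8 CPM in AT1-like cells (51.2 to 62.9), a ratio of 1.67 (1.48 to 1.89). Of the other transferases, Mgst1 was at 664 CPM in AT2-like and 47.1 CPM in AT1-like cells, a ratio of 14.1, and Gsta4 at 81.9 and 4.75 CPM, a ratio of 17.3. Mgst3 was at 36.2 and 190 CPM, a ratio of 0.190. On the transferase list 10 passed, with 3 at least 2-fold higher (Gsta4, Gstt3 and Mgst1) and 3 lower (Gstp1, Gsto1 and Mgst3), and a median log2 ratio of 0.79.

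Of the peroxiredoxin and thioredoxin genes, 14 passed, 2 were at least 2-fold higher in AT2-like cells (Prdx4 and Glrx) and 2 lower (Prdx6 and Txnip), with a median log2 ratio of -0.03. Glrx, the cytosolic glutaredoxin, was at 108 CPM in AT2-like and 1.53 CPM in AT1-like cells, from 1073 and 10 UMIs, a ratio of 70.3 (38.1 to 147). Prdx4 was at 61.9 and 17.9 CPM, a ratio of 3.45. Of the dismutase and copper genes, 7 passed, 3 were higher (Atox1, Slc31a1 and Atp7b) and 0 lower, with a median log2 ratio of -0.43. Slc31a1, which imports copper, was at 154 and 20.5 CPM, and Atp7b, which exports it, at 66.3 and 3.83 CPM. Of the NRF2 targets, 11 passed, 6 were at least 2-fold higher in AT2-like cells (Hmox1, Gclc, Pgd, Tkt, Me1 and Blvrb) and 1 lower (Ephx1), with a median log2 ratio of 1.01. Hmox1, which breaks down haem, was at 63.9 and 5.97 CPM, a ratio of 10.7. NRF2 itself (Nfe2l2) was at 125 and 94.0 CPM, a ratio of 1.33, and of its regulators 6 passed, 0 were 2-fold higher and 1 was lower (Sqstm1). Of the enzymes that generate reactive oxygen, 2 passed, 1 was higher (Maob, at 78.5 and 12.2 CPM) and 0 lower. Of the glucocorticoid genes, 9 passed, 1 was higher and 6 lower, and of the immediate early genes 15 passed, 6 were higher and 6 lower.

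**Figure D4:**
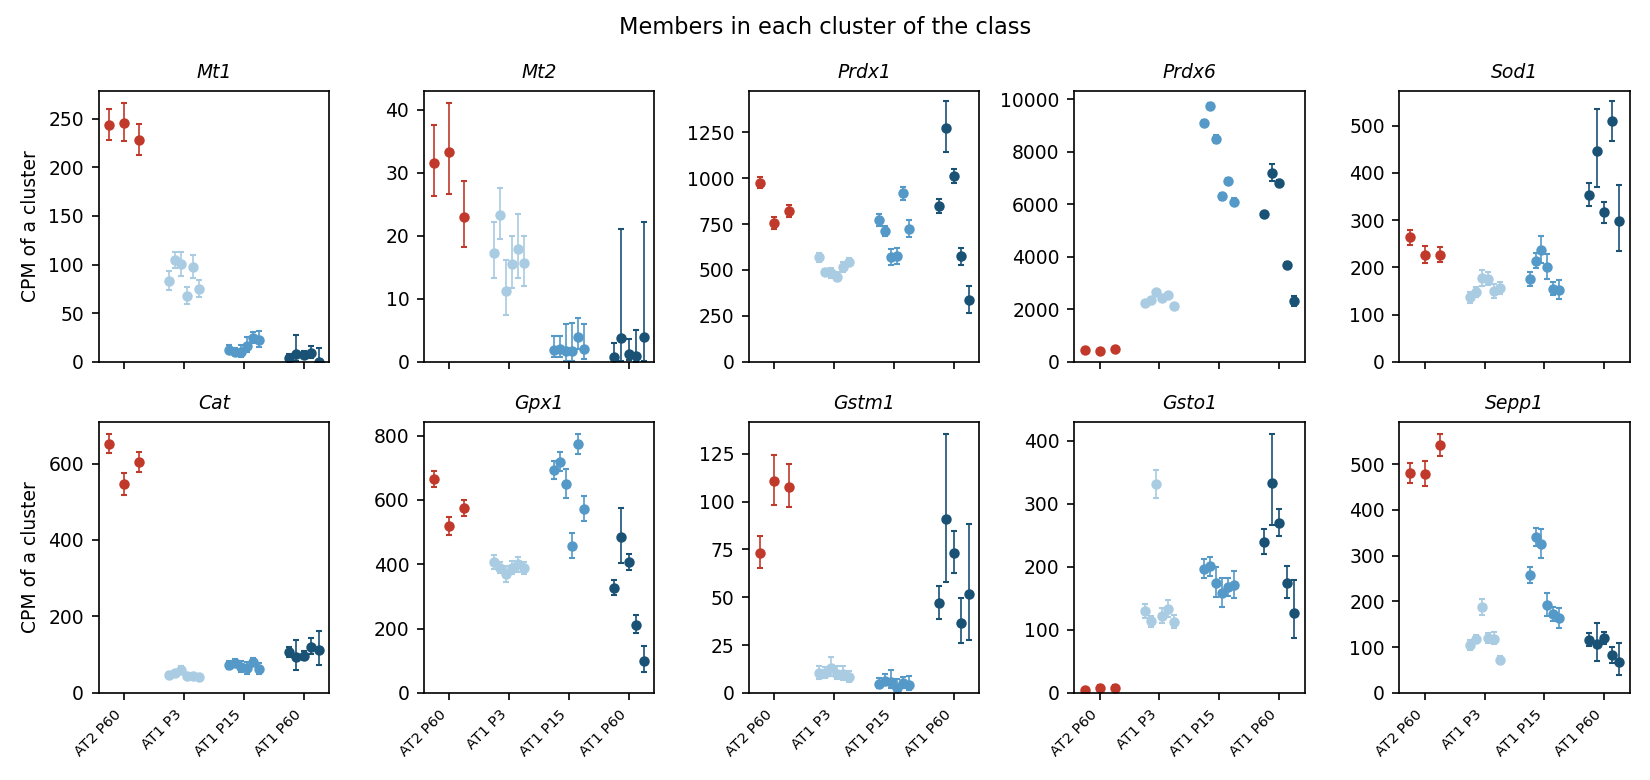
CPM of each member in every cluster of the sorted class, with exact 95% Poisson intervals, for the AT2 library (red) and the AT1 libraries at P3, P15 and P60 (light to dark blue); each panel has its own axis from 0. Prdx1, Prdx6 and Gpx1 spread most at P60, where they were lowest in cluster 6, and the Gsto1 value of cluster 2 at P3 (331 CPM) is 101 CPM without 1 cell.

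The highest cluster exceeded the lowest by over 2 times for 1 of 10 members in AT2-like cells (Gsto1, from few UMIs), and in AT1-like cells for 3 of 10 at P3, 4 of 10 at P15 and 6 of the 9 with a factor at P60, where Mt1 was at 0 in the lowest cluster. In AT2-like cells the highest cluster exceeded the lowest by 1.08 times for Mt1, 1.12 times for Prdx6, 1.13 times for Sepp1 and 1.19 times for Cat, and by 1.51 times for Gstm1. At P3 the factor was 1.11 for Gpx1 and 1.23 for Prdx1, and it was 2.59 for Sepp1, highest in cluster 2, which was led by Psca, Plet1 and Ltf. For Gsto1 the P3 factor was 2.93, and it came from the single cell of 576 UMIs in cluster 2. Without that cell, cluster 2 had the lowest Gsto1 level of the 6 P3 clusters, 101 CPM against 331 CPM with it, and the factor was 1.32. At P60 the factor was 3.82 for Prdx1, 3.13 for Prdx6 and 4.87 for Gpx1. All 3 were lowest in cluster 6, whose 110 cells had a median of 2143 UMIs and were led by Lars2 and Neat1, and highest in cluster 1, of 111 cells, led by Naa50 and Bag1, where the median was 2060 UMIs before 2 further cells were set aside. In cluster 6 they stood at 334, 2302 and 99.4 CPM, and in cluster 1 at 1275, 7197 and 484 CPM. Cat did not follow that order, with a factor of 1.27 at P60. Without the clusters led by Lars2 and Neat1, the P60 over P15 ratio of Gpx1 was 0.53. As clusters were built from the same cells, these ranges carry no test.

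Over single cells thinned to 2000 UMIs, the correlations between members were mostly near 0. At that depth most members averaged under 1 UMI per cell, such as 0.0149 for Mt1 at P60 and 0.00829 for Gstm1 at P15. Counts this low hold rho near 0, so for such members these values cannot show whether they vary together. Prdx1 and Prdx6 averaged more in AT1-like cells, with 1.05 and 4.82 UMIs at P3 and 1.70 and 10.6 UMIs at P60. Of 45 pairs of members, the median Spearman rho over cells was between -0.00109 and 0.00972 in the 4 libraries. The highest values were 0.22 for Mt1 and Mt2 over 1946 AT2-like cells, and 0.09 for Mt1 and Mt2 over 2818 cells at P3, 0.12 for Prdx6 and Sepp1 over 2414 cells at P15, and 0.28 for Prdx1 and Prdx6 over 1075 cells at P60. In AT2-like cells, a Mt2 UMI was found in 9.55% of cells with a Mt1 UMI and 1.63% of cells without. At P60 the pair Prdx1 and Prdx6 also shared the low cluster 6. Cells of 1 library share their preparation, and these values describe that library only.

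**Figure D5:**
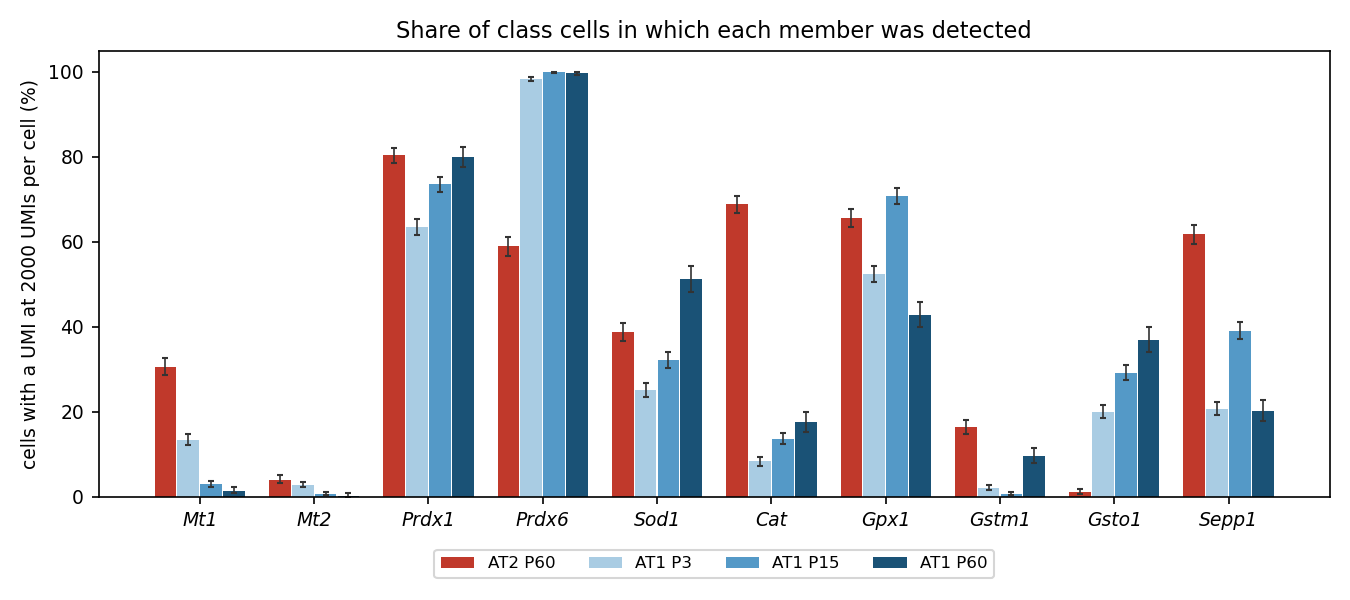
Share of class cells with at least 1 UMI of each member after every cell was thinned to 2000 UMIs, in AT2 cells at P60 (red) and AT1 cells at P3, P15 and P60 (light to dark blue), with exact 95% binomial intervals. Prdx6 was detected in at least 98.3% of AT1-like cells at each age and 58.9% of AT2-like cells, and Cat in 68.9% of AT2-like cells.

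The remaining thinned shares followed the levels, with no order other than that of the CPM for AT2 against AT1 cells at P60. A Sepp1 UMI was found in 61.8% of AT2-like and 20.2% of AT1-like cells at P60, a Gpx1 UMI in 65.7 and 42.9%, and a Gstm1 UMI in 16.4 and 9.67%. Over AT1 ages, Sod1 was found in 25.1, 32.2 and 51.3% of cells, Prdx1 in 63.6, 73.6 and 80.1% and Cat in 8.37, 13.7 and 17.6% at P3, P15 and P60. Before thinning, the shares in AT2-like and AT1-like cells at P60 were 51.2 and 2.42% for Mt1, 92 and 41.1% for Cat, 87.4 and 40.5% for Sepp1, 88.8 and 70.4% for Gpx1, 33.6 and 23.9% for Gstm1, 84.8 and 99.8% for Prdx6 and 3.02 and 62.8% for Gsto1. Before thinning over the AT1 ages, they were 65.8, 56.6 and 77.4% for Sod1, 95.9, 90.4 and 90.3% for Prdx1, 30.6, 30.1 and 41.1% for Cat, 7.59, 2.52 and 23.9% for Gstm1 and 54.4, 53.4 and 62.8% for Gsto1. Thinning left out 41 AT2-like cells and 0, 210 and 122 AT1-like cells.

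For each member, the genes with the most similar profile over the 4 libraries were sought among 3627 genes with at least 50 CPM in 1 library, by the distance of centred log2(CPM + 10) values. Sod1 was closest to Mecom (distance 0.044), which stood at 229 CPM in AT2-like cells and at 149, 171 and 342 CPM over the AT1 ages, and then to Smim19 (0.15). Prdx1 was closest to Cdpf1 (0.098) and Ankrd40 (0.11), and Mt2 to Chd3 (0.15) and Dap (0.19). Mt2 was under 50 CPM in all 4 libraries, where the added 10 CPM narrows a profile. It stood at 17.6 CPM at P3 and 1.22 CPM at P60, against 99.6 and 29.1 CPM for Chd3. Gsto1 was closest to Arhgef26 (0.16) and to Tead1 (0.17), a DNA-binding partner of YAP, which stood at 20.2 CPM in AT2-like cells and at 246, 319 and 471 CPM over the AT1 ages. Prdx6 was closest to Tmem140 (0.25) and Tmem37 (0.34), Gpx1 to Atp6v1g1 (0.26) and Irx1 (0.28), and Cat to Abhd2 (0.33) and Ang (0.34). Sepp1 was closest to Iah1 (0.41) and to Glul (0.43), the glutamine synthetase gene. Gstm1 was closest to Nr1d1 (0.62), a repressor of the circadian clock, and Snhg9 (0.64), and Mt1 to Id2 (0.77) and Rprm (0.87). Among the members, Prdx1 and Sod1 were nearest to each other (0.56), with 109 other genes nearer to Sod1 than Prdx1 was and 262 nearer to Prdx1 than Sod1 was. With 4 points per profile, these distances rank genes and do not relate them.

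Sod1, Gsto1, Sepp1 and Mt2 each overlap a gene on the opposite strand in the annotation, and the sources used here do not state the strand used in counting. Scaf4, which overlaps Sod1, stood at 9.42 to 16.2 CPM in the 4 libraries. Cfap43, which overlaps Gsto1, stood at 1.71 CPM in AT2-like cells and at 23.6, 47.3 and 66.6 CPM at P3, P15 and P60, the same order as Gsto1. The part of reads from these neighbours in the levels of Sod1 and Gsto1 was not tested. The partners of Sepp1 (Ccdc152) and Mt2 (Gm45774) were listed under these symbols in none of the 4 libraries, so they have no level here.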

How the data were processed

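Single cells of 4 sorted mouse lung libraries, 1 per group, were measured. The authors deposited natural log values, ln(1 + UMIs scaled to 10000 per cell), and Cell Ranger 1.3.1, Seurat 2.0.0 and the builds mm10 and hg19 are named, per the submitters' processing notes, which give no role for hg19. Whole UMIs were recovered from the deposited log values within 0.05 of a whole number, and all levels are CPM of summed UMIs.

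Cells were clustered per library (Scanpy 1.11.5, igraph 0.11.9, 2000 variable genes, 20 components, Leiden resolution 0.5) and named from markers. No doublet caller was run; cells with several markers of another class were set aside, with thresholds chosen after seeing the data. A ratio was counted at 2-fold or more where the higher library had 50 CPM and 30 UMIs. Intervals are exact 95% Poisson (levels and ratios) or Clopper-Pearson (shares) and cover counting error only. The counting of 2-fold ratios was tested on simulated data that held counting error only. That test does not cover variation between cells, animals or libraries. Python 3.11.15, numpy 2.4.6, pandas 2.3.3, SciPy 1.17.1 and matplotlib 3.10.9 were used.

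The members and lists were chosen with earlier results of these data known. From each antioxidant or metal list, up to 4 genes besides the members are described, the 2 highest and 2 lowest ratios of P60 over P3 or of AT2 over AT1, and for each member the 2 nearest profiles. Other genes named were at least 2-fold apart, overlap a member, or were chosen after their values were seen. Other scalings, cells, resolutions, filters and folds were tried as alternatives.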

Additional observations from a re-analysis of the deposited data

How the results depend on the processing

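Each group was 1 library, so animal, sort, digestion and library cannot be told apart from age or cell type, and depth limits Mt1, Mt2 and Gstm1 in some AT1-like classes and Gsto1 in AT2-like cells (66 UMIs). No paired analysis was possible because each group held 1 library, and for the same reason no library could be left out. Of 40 ratios, 33 kept their direction under every alternative run, and 7 of the 16 called ratios stayed at least 2-fold in all of them. The called ratio that turned was Gstm1 at P60 over P3, at 0.864 with all cells of each library. The causes of the changes below were not tested. The minimum of 50 CPM was applied again after each scaling. At P60 over P3, Gstm1 left the count under it with the trimmed mean and with median-of-ratios size factors, while its ratio stayed past 2-fold. For P60 over P3, the number of members at least 2-fold higher was 2 with the trimmed mean of log ratios, with median-of-ratios size factors and with all cells, and 1 with mean log values; the number lower was 2 with all cells, 0 with mean log values and 2 with no filter. For P15 over P3, the number higher was 1 with haemoglobin, mitochondrial and ribosomal protein genes left out of the total, 1 without the clusters led by immediate early genes, 1 with mean log values and 4 at 1.5-fold; the number lower was 2 with all cells, 0 with mean log values and 3 with no filter. For P60 over P15, the number higher was 2 without Malat1 in the total, without the immediate early clusters, without AT1-like cells holding 3 or more AT2 markers, without the 1% of cells highest in the gene, and at 1.5-fold, and 0 with all cells and with mean log values. The number lower there was 1 without Malat1, with all cells, without the clusters led by Lars2 and Neat1 and without P15 cluster 4, 0 without the immediate early clusters and with mean log values, and 3 with no filter. For AT2 over AT1, the number higher was 5 with either scaling and at 1.5-fold, and 4 with no filter. Leaving out AT2 cluster 1, P15 cluster 4 or the Lars2 and Neat1 clusters was chosen after seeing the data.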
